A study of Mus musculus with 6 samples.

Results

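Pericytes and vascular smooth muscle cells are the mural cells that wrap the outside of blood vessels, pericytes on capillaries and smooth muscle cells on arterioles and larger vessels. Endothelial cells (ECs) attract them with PDGF-B, which is sensed by PDGFRβ on the mural cell, and keep them mature through Notch3. Contractile smooth muscle is told from pericytes mainly by its actin, myosin and actin-binding proteins, many of which are under the control of serum response factor (SRF). Here 10 mural genes were followed in RNA from sorted choroid ECs of 129/B6 mice. They were found by gene symbol in the deposited lists, where all 10 of 10 were present among 22026 genes. Pericyte genes were Rgs5, Pdgfrb, Notch3, Cspg4, Kcnj8 and Abcc9, and smooth muscle genes were Acta2, Tagln, Myh11 and Des.

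The samples were 3 isolations from mice at postnatal day 5 (P5) and 3 from mice at postnatal day 30 (P30), each a pool of the RPE/choroid of 7 animals, male and female at P30. All animals received an intravital injection of an antibody to VE-Cadherin, an EC adhesion protein, and VE-Cadherin+ cells were then taken by flow cytometry, so mural cells were not the cells sorted for. The antibody dose was larger at P30 than at P5, and P5 mice were anaesthetised by hypothermia, so the labelling differed with age. Values are FPKM, fragment numbers scaled to the length of the transcript and the size of the library, so levels can be compared between genes. The depth of the libraries is unknown, so no counting error is given. Differences between ages are given on the scale of log2(FPKM + 1), which understates the change of genes with low FPKM. The genes were selected on their FPKM in these 6 isolations, P5 against P30, so their levels, age differences and isolation order are described here without a test.

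In the sorted cells, the summed FPKM of endothelial markers stood above that of the mural genes at both ages. Gene by gene this did not hold at P30. In P30 replicate 2, Rgs5 at 4082 FPKM was above most of these markers. Among them was Cdh5, the gene of VE-Cadherin, at 1874, while Plvap, the most abundant marker, had 8862. Over 10 endothelial markers, the summed FPKM lay between 23049 and 24992 at P5 and between 33217 and 40510 at P30, and no marker was near 0 in any isolation. Pericyte genes summed to between 2.03% and 7.05% of this endothelial sum at P5 and to between 4.48% and 18.5% at P30. For the 4 smooth muscle genes the shares were 0.369% to 0.712% at P5 and 0.749% to 3.20% at P30. Which cells carried this RNA was not tested. A larger number of mural cells and more RNA per mural cell cannot be told apart in such bulk samples.

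Promoter sequences are shown for 3 genes on which the descriptions below turn: Acta2, for smooth muscle actin, and the neighbouring genes Kcnj8 and Abcc9, whose levels differed between isolations in different ways. They are the 250 bases before the annotated start in RefSeq on GRCm38.p6, written 5′ to 3′ on the strand of the gene. Entries were matched for 7 of the 10 genes. Pdgfrb, Tagln and Myh11 had none. Capitals mark matches on either strand to the CArG box, the site bound by SRF, with at most 1 base other than A or T in its core, or to TGGGAA, the core of sites bound by the Notch partner RBPJ.
Acta2, chr19:34255374-34255623, minus strand: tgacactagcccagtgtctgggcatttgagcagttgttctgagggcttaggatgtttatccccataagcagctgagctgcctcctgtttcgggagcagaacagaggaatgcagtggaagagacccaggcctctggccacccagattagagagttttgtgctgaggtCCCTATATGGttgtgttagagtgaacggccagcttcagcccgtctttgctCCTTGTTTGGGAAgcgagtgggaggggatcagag
Kcnj8, chr6:142571615-142571864, minus strand: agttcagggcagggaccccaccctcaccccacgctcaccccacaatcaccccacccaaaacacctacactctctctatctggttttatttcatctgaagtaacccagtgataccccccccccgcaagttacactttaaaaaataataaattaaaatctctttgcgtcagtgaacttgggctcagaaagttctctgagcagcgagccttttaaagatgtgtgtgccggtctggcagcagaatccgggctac
Abcc9, chr6:142702275-142702524, minus strand: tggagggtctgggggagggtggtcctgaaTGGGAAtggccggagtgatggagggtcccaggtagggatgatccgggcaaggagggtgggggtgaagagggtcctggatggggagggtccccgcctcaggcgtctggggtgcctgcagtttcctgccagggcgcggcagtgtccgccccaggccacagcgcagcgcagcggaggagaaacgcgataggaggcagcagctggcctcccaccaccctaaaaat
The Acta2 promoter held 2 CArG-like matches, CCCTATATGG starting 84 bases and CCTTGTTTGG starting 34 bases before the annotated start, and the second overlaps its TGGGAA match. Each carries 1 base other than A or T in the core, so neither is a strict CArG box. Of 32851 promoters of the same length, 8.59% held such a relaxed match, 1.47% a strict one and 21.6% a match to TGGGAA. Among the 7 matched promoters, Acta2 was the one with a relaxed CArG match, and Acta2 and Abcc9 held TGGGAA. These matches are letters in a window and say nothing of binding.

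Of the pericyte genes, Rgs5 was by far the most abundant. Rgs5 (chromosome 1, 171585632 to 171625944 of mm9) encodes a regulator of G-protein signalling that is enriched in pericytes. It had an FPKM of 1042, 491 and 208 in P5 replicates 1, 2 and 3, and of 1283, 4082 and 2660.2 in P30 replicates 1, 2 and 3. All P30 values lay above all P5 values, although the lowest of P30 was 1.23 times the highest of P5. The mean FPKM was 580 ± 424 (SD, n = 3) at P5 and 2675 ± 1399 at P30, 4.61-fold higher, a difference of 2.34 on the log2 scale. In P30 replicate 2, 20 genes of 22026 had a higher FPKM than Rgs5.

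The receptors Pdgfrb and Notch3 went with Rgs5. Pdgfrb (chromosome 18, 61204804 to 61244715), the PDGF-B receptor, had an FPKM of 226, 111 and 48.6 in P5 replicates 1, 2 and 3, and of 230.3, 993 and 491 in P30 replicates 1, 2 and 3. The lowest P30 value was 1.02 times the highest P5 value, so the ages met without overlapping. Notch3 (chromosome 17, 32257765 to 32303825), the Notch receptor of mural cells, had 124, 66.7 and 23.6 at P5 and 107, 498 and 285 at P30, and its ages overlapped, since P30 replicate 1 was below P5 replicate 1. Mean FPKM at P30 was 4.45-fold that of P5 for Pdgfrb and 4.15-fold for Notch3, and the log2 differences were 2.16 and 2.07. Among the other Notch receptors, Notch1 and Notch4 had a higher mean than Notch3 at both ages, 353 ± 28.7 and 327 ± 29.1 FPKM at P5 and 462 ± 20.8 and 409 ± 51.3 at P30, with little spread between isolations.

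Cspg4 (chromosome 9, 56712911 to 56747677), which encodes the NG2 proteoglycan on the pericyte surface, was the lowest of the pericyte genes and the one with the most overlap among those that tracked Pdgfrb. Its FPKM was 50.7, 23.0 and 8.88 at P5 and 21.0, 84.4 and 45.2 at P30, in order of replicate. P30 replicate 1 was below 2 of the 3 P5 isolations. The log2 difference between ages was 0.94, smaller than that of Rgs5, Pdgfrb, Notch3 or Kcnj8, and smaller than the SD of 1.19 between the P5 isolations.

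Kcnj8 and Abcc9 encode the pore and the sulphonylurea receptor of the vascular ATP-sensitive potassium channel, and lie 16.5 kb apart on chromosome 6 of mm9 (142513459 to 142519876 and 142536382 to 142650794). Kcnj8 followed the other pericyte genes, with an FPKM of 66.8, 43.8 and 15.4 at P5 and of 80.1, 244 and 143 at P30, and no overlap of the ages. Abcc9 did not. It had 199, 159 and 163 at P5 and 92.5, 259 and 167 at P30, with P5 isolations within 1.25-fold of each other where Kcnj8 spanned 4.34-fold. The mean FPKM of Abcc9 was 174 ± 22.0 at P5 and 173 ± 83.6 at P30, and no direction is given for it, because its log2 difference of -0.12 ranged from -0.47 to 0.27 as single isolations were left out. The ratio of Abcc9 to Kcnj8 was 2.98, 3.62 and 10.6 at P5 and 1.16, 1.06 and 1.17 at P30, so at P30 both channel subunits ran in nearly fixed proportion in the 3 isolations, while at P5 they did not. The paralogous subunits Kcnj11 and Abcc8 were listed at 0 in every P5 isolation, and at P30 Kcnj11 was listed above 0 in 1 isolation (0.790 FPKM) and Abcc8 in none.

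**Figure D1:**
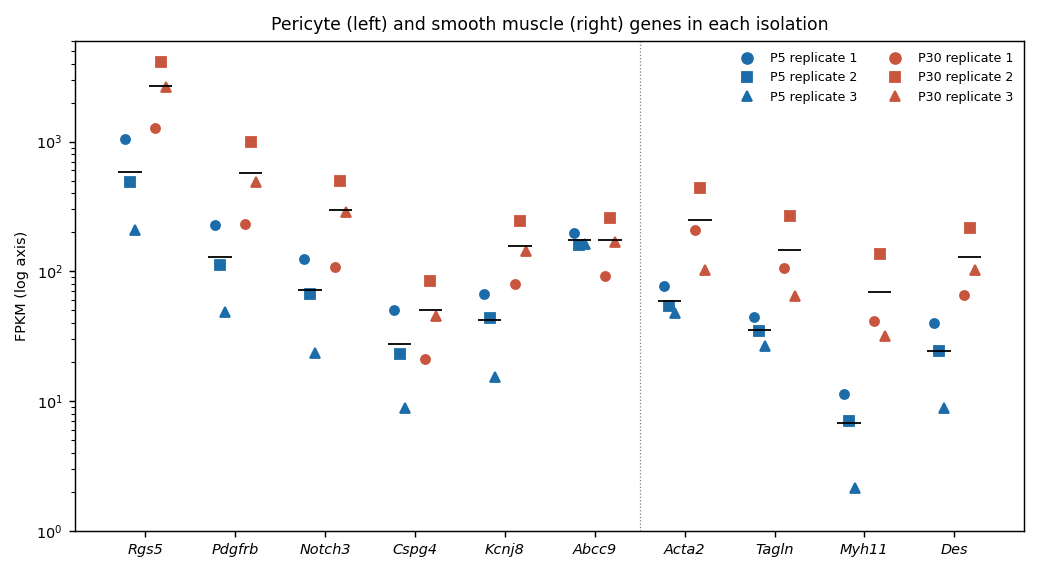
FPKM on a log axis of the 6 pericyte genes (left of the dotted line) and 4 smooth muscle genes (right) in each of the 3 P5 (blue) and 3 P30 (red) isolations, with marker shape giving the replicate and a black bar the mean of the age. P30 replicate 2 is the highest point for all 10 genes, P5 replicate 1 is the highest of P5, and Abcc9 has the same mean at both ages (174 and 173 FPKM).

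Smooth muscle genes were less abundant than Rgs5 and Pdgfrb, and in all 4 every P30 isolation lay above every P5 isolation. Acta2 (chromosome 19, 34315580 to 34329826), the smooth muscle α-actin, had an FPKM of 76.9, 53.9 and 47.3 in P5 replicates 1, 2 and 3, and of 209, 442 and 102 in P30 replicates 1, 2 and 3. Tagln (chromosome 9, 45737711 to 45744141), the actin-binding protein transgelin, had 44.6, 34.7 and 26.7 at P5 and 106, 270 and 64.8 at P30. Both genes spread little at P5, 1.63-fold and 1.67-fold from the lowest to the highest isolation, against 4.16-fold or more at P30. Tagln kept a nearly constant proportion to Acta2 in all 6 isolations, with a ratio of 0.580, 0.643 and 0.565 at P5 and of 0.509, 0.610 and 0.637 at P30.

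Myh11 (chromosome 16, 14194620 to 14291501), the smooth muscle myosin heavy chain and the most restricted contractile marker of the 4, had the lowest FPKM of the 10 genes at P5, 11.3, 6.98 and 2.13. In P30 replicates 1, 2 and 3 it had 41.3, 136 and 31.8. The lowest P30 value was 2.82 times the highest P5 value, the widest gap among the 10 genes, and the mean was 10.3-fold higher at P30 (log2 difference 3.09). The ratio of Acta2 to Myh11 was 6.82, 7.73 and 22.2 at P5 and 5.05, 3.24 and 3.20 at P30, lower at P30 without overlap.

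Des (chromosome 1, 75356904 to 75365154), the muscle intermediate filament protein desmin, which pericytes also carry, had 39.7, 24.3 and 8.87 at P5 and 65.8, 215 and 103 at P30. Its P30 mean was 5.27-fold the P5 mean. Des spread 4.47-fold at P5 and Myh11 5.30-fold, against 1.63-fold for Acta2, so the P5 spread differed among the smooth muscle genes. Skeletal muscle also contains desmin, and its part in the Des values was not tested. The sums of 7 of its markers were 5.69 to 12.9 FPKM at P5 and 12.4 to 29.5 at P30. By P30 mean, Acta1 was the most abundant of them, at 7.48, 5.12 and 5.10. Tnnc2 had 12.8, 0 and 2.40 at P30, and Myh4 was listed at 0 in 5 of the 6 isolations.

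The median log2 difference, P30 minus P5, was 2.01 over the 6 pericyte genes and 2.12 over the 4 smooth muscle genes, against -0.10 over the 12481 genes whose mean FPKM reached 5 at either age. All 10 genes passed that minimum. The 3 P30 values all exceeded the 3 P5 values in 3 of 6 pericyte genes and 4 of 4 smooth muscle genes, beside 22.0% of the 12481 genes, and all lay under them in 0 of the 10, beside 33.0%. Since the genes were chosen with these values in view, nothing is read from these counts. Scaling mattered for these counts. The geometric mean of the endothelial markers was itself higher at P30, and relative to it 0 of 6 pericyte and 3 of 4 smooth muscle genes had all P30 values above all P5 values, while the median log2 differences were 1.56 and 1.67 and that of all genes -0.55. Relative to Cdh5, the gene of VE-Cadherin, with a log2 difference of -0.66 (limma adjusted p = 0.00205) that was under the 2-fold limit used below, the numbers were 4 of 6 pericyte genes and 4 of 4 smooth muscle genes.

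The order of the isolations differed between pericyte and smooth muscle genes at P30 but not at P5. At P5, replicate 1 was above replicate 2 and replicate 2 above replicate 3 in 9 of the 10 genes, the exception being Abcc9, an order shown by 23.6% of all genes tested. At P30, replicate 2 was the highest for all 10 genes (46.1% of all genes). All 6 pericyte genes then had replicate 3 above replicate 1 (25.9% of all genes have the order 2, 3, 1), whereas Acta2, Tagln and Myh11 had replicate 1 above replicate 3 (19.7% have the order 2, 1, 3). Des, counted with smooth muscle, had the order of the pericyte genes. Both orders together, 1, 2, 3 at P5 and 2, 3, 1 at P30, were shown by 5 of 6 pericyte genes and 1 of 4 smooth muscle genes, beside 6.63% of all genes. The summed FPKM of the pericyte genes was 9.90, 7.46 and 5.50 times that of the smooth muscle genes at P5, and 4.30, 5.80 and 12.6 times in P30 replicates 1, 2 and 3. P30 replicate 1 had the lowest and P30 replicate 3 the highest of these ratios, but Rgs5 was the largest term of the pericyte sum in each isolation. Without Rgs5 the ratios were 3.86, 3.36 and 3.05 at P5 and 1.26, 1.96 and 3.76 at P30, with P30 replicate 1 still the lowest and P5 replicate 1 the highest. With 3 isolations per age, this order allows no correlation across samples.

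Dividing each gene by Pdgfrb of the same isolation removes any scaling of the library and shows which mural genes kept a fixed proportion. This division was chosen after the values had been seen. Rgs5 was 4.61, 4.43 and 4.28 times Pdgfrb at P5 and 5.57, 4.11 and 5.42 times at P30, and Notch3 was 0.550, 0.601 and 0.487 times at P5 and 0.465, 0.501 and 0.580 times at P30, both with overlap of the ages. Kcnj8 kept between 0.296 and 0.395 at P5 and between 0.245 and 0.348 at P30. In these genes a Pdgfrb level that varied 20.4-fold over the 6 isolations left the proportions within 1.61-fold.

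Cspg4 held a tight proportion at each age, but not the same one. It was 0.225, 0.207 and 0.183 times Pdgfrb at P5 and 0.0913, 0.0850 and 0.0920 times at P30, a mean of 0.205 ± 0.0210 (SD, n = 3) against 0.0895 ± 0.00390. Per unit of Pdgfrb, the NG2 gene was thus 2.29-fold lower at P30, with no overlap. Abcc9 was also lower per Pdgfrb at P30 without overlap, 0.881, 1.43 and 3.36 times at P5 against 0.401, 0.261 and 0.341 times at P30, but with a wide spread at P5. Myh11 was higher per Pdgfrb at P30, 0.0499, 0.0629 and 0.0438 times at P5 against 0.179, 0.137 and 0.0649 times at P30, although P30 replicate 3 was 1.03 times the highest P5 isolation and the separation was lost when 1 FPKM was added to both genes. A ratio shows unequal change of its 2 genes and does not say which of them changed.

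**Figure D2:**
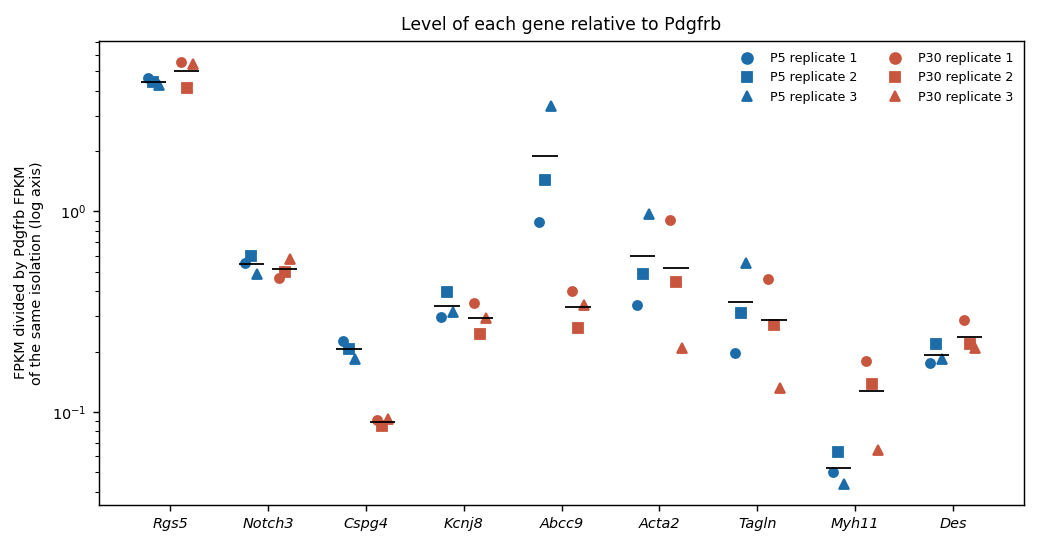
FPKM of each gene divided by the FPKM of Pdgfrb in the same isolation, on a log axis, for 3 P5 (blue) and 3 P30 (red) isolations, with marker shape giving the replicate and a black bar the mean of the age. Rgs5, Notch3 and Kcnj8 overlap between the ages, Cspg4 has a mean of 0.205 at P5 and 0.0895 at P30 with little spread, and Acta2 and Tagln scatter within each age.

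Other mural genes were taken from lists that hold none of the 10, and these were tested with limma over the 12481 genes, which counts a gene if its Benjamini-Hochberg adjusted p is below 0.01 and its mean FPKM + 1 differs at least 2-fold. Over all genes, 5.89% were counted as higher at P30 and 5.82% as lower. These genes vary with the 10 genes described above and come from the same isolations, so they are no independent evidence. Of 18 other pericyte genes, all of them tested, 4 rose at P30, 0 fell and 14 did not pass, and the median log2 difference over the list was 1.82. Vtn, Higd1b and Art3 were among those that rose. Vtn, which encodes vitronectin, rose from 3.55, 2.70 and 1.09 to 86.7, 425 and 162 FPKM (log2 difference 5.80, SE 0.57, limma adjusted p = 0.000463). Higd1b, a pericyte marker of the hypoxia-inducible domain family, was listed at 3.14, 0 and 0 at P5 and at 26.9, 68.1 and 27.6 at P30 (log2 difference 4.57, SE 0.65, limma adjusted p = 0.00205). Art3, an ADP-ribosyltransferase family member, had a log2 difference of 2.13 (SE 0.24, limma adjusted p = 0.000748).

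Among those that did not pass, Steap4, a metalloreductase, had 79.2, 49.2 and 20.5 FPKM at P5 and 147, 687 and 333 at P30, without overlap, and missed the limit (log2 difference 2.87, SE 0.63, limma adjusted p = 0.0111). Mcam, which ECs also express, had the highest mean FPKM of the list at P30, 1061 ± 220, against 1667 ± 55.5 at P5, and did not pass (log2 difference -0.67, SE 0.16, limma adjusted p = 0.0136). In P5 isolations, 15 of the 18 genes had the order 1, 2, 3, beside 23.6% of all genes. In P30 isolations 15 had the order 2, 3, 1 (25.9% of all genes) and 17 had their highest value in replicate 2 (46.1%). Relative to Pdgfrb, Vtn went from 0.0157, 0.0243 and 0.0224 to 0.376, 0.428 and 0.330, a mean ratio 18.2-fold higher at P30, while Heyl, a Notch target, kept 0.394, 0.471 and 0.251 at P5 and 0.267, 0.261 and 0.278 at P30. Steap4 also ran at a nearly fixed proportion at each age, 0.405 ± 0.0484 at P5 and 0.669 ± 0.0282 at P30. Lower values per Pdgfrb at P30 were not particular to Cspg4 and Abcc9. Ednra, Gucy1a3, Gucy1b3, Tbx18 and Mcam were also lower without overlap, while others of the list, as Vtn and Steap4, were higher. Every P30 value of Pdgfrb lay above every P5 value. A gene that did not rise with it, as Mcam or Abcc9, therefore tends to come out lower per Pdgfrb by construction. The share of all genes that separate in this ratio was not determined, so nothing is read from these separations. Ednra had 0.393 ± 0.0268 at P5 and 0.236 ± 0.0294 at P30, and Gucy1a3 0.849 ± 0.178 and 0.324 ± 0.0362.

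Of 18 other smooth muscle genes, 15 were tested, 5 rose at P30, 0 fell and 10 did not pass. Over all genes, 5.89% were higher and 5.82% lower. The median log2 difference was 1.36 over those of the list that were tested. Myl9, a regulatory light chain of smooth muscle myosin, rose from 141, 87.6 and 81.3 to 381, 826 and 358 FPKM (log2 difference 2.26, SE 0.35, limma adjusted p = 0.00278). Pln, which encodes the calcium pump inhibitor phospholamban, was listed at 0, 0.670 and 0.650 at P5 and at 9.47, 20.3 and 6.80 at P30, and Lmod1, a leiomodin of smooth muscle, at 1.47, 1.46 and 0.350 and at 6.74, 18.7 and 9.32 (log2 differences 3.10, SE 0.53, and 2.53, SE 0.51, with limma adjusted p = 0.00441 and 0.00790). Both lost their call with the replicate number as a block, and the count of the list was then 3. Sncg, which encodes γ-synuclein, and the heat shock gene Hspb1 also rose, with log2 differences of 3.68 and 2.80 (limma adjusted p = 2.6e-05 and 0.000122), but did not have their highest P30 value in replicate 2. Sncg had 233, 197 and 207 and Hspb1 414, 362 and 456 FPKM at P30, a much narrower spread than any of the 10 genes.

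Broadly expressed contractile genes were already high at P5. Cald1 averaged 647 ± 15.8 FPKM in the P5 and 694 ± 124 in the P30 isolations, and Tpm1 476 ± 27.7 and 643 ± 167, and neither passed (limma adjusted p = 0.634 and 0.103). Smtn had 448 ± 34.0 and 421 ± 44.5 (limma adjusted p = 0.527). Cnn1, the calponin of contractile smooth muscle, was at most 0.780 FPKM at P5 and at most 2.46 at P30, below the minimum for the test, as were Actg2 and Kcnmb1. A calponin level this low stood beside an Acta2 level of 102 FPKM or more at P30.

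**Figure D3:**
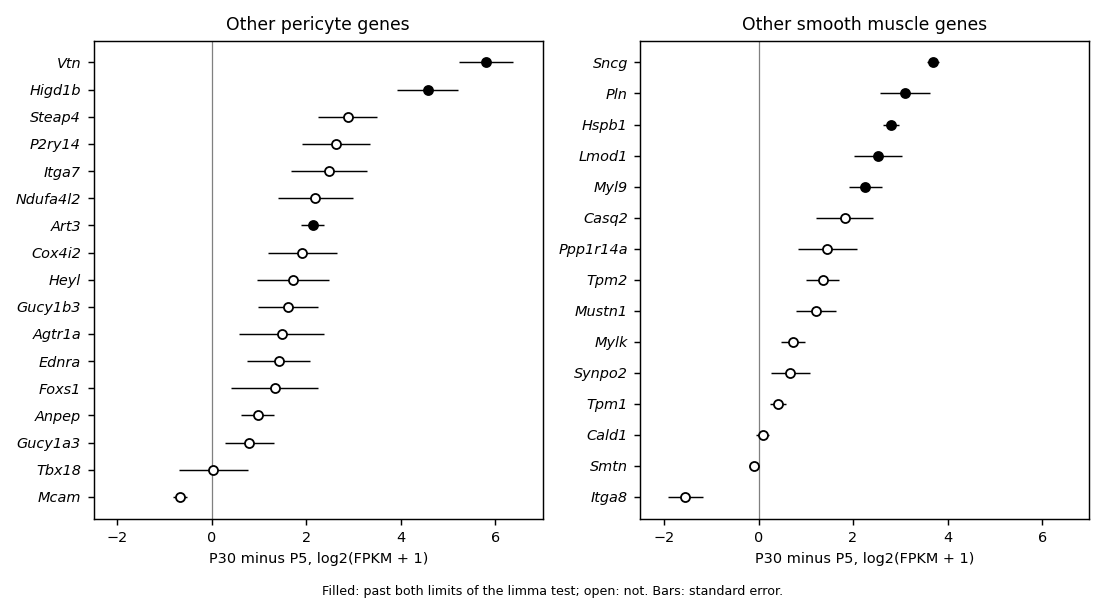
Difference in log2(FPKM + 1), P30 minus P5, of tested genes from the lists of other pericyte genes (left) and other smooth muscle genes (right), with the standard error of the limma coefficient as bars. Filled points, 3 on the left and 5 on the right, passed both limits of the test, and most open points of the pericyte list lie to the right of 0 with wide bars.

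The signals that reach mural cells were measured in the same libraries. Of 12 genes of this kind, 3 rose at P30, 0 fell and 9 did not pass, beside 5.89% higher and 5.82% lower over all genes. Pdgfb, the ligand of Pdgfrb, had 468, 436 and 399 FPKM at P5 and 595, 405 and 471 at P30 and did not pass (log2 difference 0.16, SE 0.15, limma adjusted p = 0.429). Those that rose were Hbegf, a growth factor, Edn1, the vasoconstrictor endothelin-1, and S1pr1, a sphingosine-1-phosphate receptor of ECs, with log2 differences of 1.75, 2.37 and 1.23 (limma adjusted p = 0.000478, 0.00194 and 0.000183). The Notch ligands Jag1, Jag2, Dll1 and Dll4 did not pass both limits. The 4 P30 means were 158 ± 14.6, 364 ± 45.3, 98.3 ± 4.43 and 544 ± 86.6 FPKM, and Dll4 and Jag2 had log2 differences of 0.92 and 0.98, short of 2-fold. Tgfb1, another ligand, had 439 ± 28.8 at P5 and 476 ± 60.4 at P30 (limma adjusted p = 0.487). Edn1 and Hbegf did not follow the order of Rgs5 at P30, where Edn1 was highest in replicate 1 and Hbegf in replicate 3.

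Of 7 regulators of SRF-dependent genes, 6 were tested, and 1 rose at P30, beside 5.89% of all genes. It was Klf4, a repressor of smooth muscle genes that ECs also express, which went from 497 ± 109 to 1809 ± 142 FPKM (log2 difference 1.88, SE 0.16, limma adjusted p = 0.000297). Myocd, which encodes myocardin, the SRF coactivator of smooth muscle, was listed at 0.520, 0.500 and 0.510 at P5 and at 0.680, 1.11 and 0 at P30. Srf had 93.3 ± 2.52 FPKM at P5 and 147 ± 17.3 at P30, a log2 difference of 0.64 (SE 0.11, limma adjusted p = 0.00511) that was under the 2-fold limit. The next most abundant regulator, Mkl2, did not pass (log2 difference 0.08, limma adjusted p = 0.663).

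Reads of near-identical genes can be shared by the aligner, so the coding sequences of the 10 genes were compared with their closest paralogues in the GENCODE annotation of mm9. Acta2 was 84.4% identical to Actg2, 85.4% to Acta1, 82.5% to Actc1 and 83.2% to Actb over the aligned coding bases, with a longest identical run of 56 bases, shared with Actg1. Actg2, Acta1 and Actc1 had at most 7.48 FPKM in any isolation, while Actb had between 2566 and 4188 and Actg1 between 1360 and 1520. Actb and Actg1 did not follow the order of the isolations seen in Acta2. Myh11 shared an identical run of 65 bases with Myh9 and with Myh10. Myh9 had 721 ± 17.5 FPKM at P5 and 678 ± 63.4 at P30, and Myh10 fell from 175 ± 21.3 to 68.4 ± 7.32 (log2 difference -1.34, SE 0.13, limma adjusted p = 0.000487). Myh10 was the one of the 13 tested paralogues that passed both limits, beside 5.82% lower and 5.89% higher over all genes. The read length is not given in the sources used here, and low Acta2 and Myh11 values at P5 are uncertain to that extent. Pairs of the other genes with their paralogues shared no run over 24 bases. Vim, the paralogue of Des and after Actb the most abundant of the list, did not pass, with a mean of 3711 FPKM in the P5 isolations against 1997 in those of P30.

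Genes other than the 10 were ranked by how closely they ran in parallel with them over the 6 isolations. Likeness was measured as the root mean square distance between log2(FPKM + 1) profiles, each centred on its own mean, over 10101 genes whose mean FPKM reached 20 at either age, for which the median distance was 1.33. The nearest to the median pericyte profile were Aspn at 0.12, Pde8b and Cacng7 at 0.19, Cox4i2 at 0.22 and Heyl at 0.23, the last 2 of which are in the list of other pericyte genes. Aspn, which encodes the matrix protein asporin, had 150, 82.1 and 34.6 FPKM at P5 and 120, 526 and 267 at P30. Among the pericyte genes themselves the distance was 0.12 for Kcnj8, 0.13 for Notch3, 0.16 for Pdgfrb, 0.24 for Rgs5, 0.50 for Cspg4 and 1.17 for Abcc9, so Abcc9 was nearly as far as the median gene.

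The smooth muscle profile had looser neighbours. They were Aldh1a2 at 0.24, Myl9 and Cp at 0.26, and Cyfip2 and Egr2 at 0.27, of which Myl9 is in the list of other smooth muscle genes, while Acta2 itself was at 0.32, Tagln at 0.28, Des at 0.40 and Myh11 at 0.52. Aldh1a2, a retinoic acid synthesising enzyme, had 51.1, 37.5 and 29.7 FPKM at P5 and 112, 356 and 125 at P30. Both lists are descriptions over 6 isolations that share their libraries.

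Markers of other cells also differed between the isolations, and their part in the results above was not tested. Over all genes tested, 5.89% passed as higher and 5.82% as lower at P30. The P30 order 2, 3, 1 was shown by 25.9% of them and the P5 order 1, 2, 3 by 23.6%. Fibroblast markers, of which 5 of 8 had the P30 order 2, 3, 1 as the pericyte genes did and 0 of 8 the P5 order 1, 2, 3, had sums of 742 to 1212 FPKM at P5 and 1821 to 4559 at P30, led by Dcn, the 1 of 8 that passed the test (higher at P30), with 854, 1439 and 820 at P30. Pdgfra, the defining fibroblast receptor of the list, was at 8.56, 6.38 and 13.5 at P5 and 15.6, 54.4 and 25.9 at P30, and Dpt was listed at 0 at P5. RPE markers, of which 5 of 7 rose at P30, had sums of 65.5 to 144 at P5, and P30 replicates 1, 2 and 3 had 3796, 2109 and 495, led by Ttr, and Rpe65 was listed at 0 in 2 P5 isolations. Photoreceptor markers, with 2 of 7 higher at P30, summed to between 15.8 and 27.6 and to between 59.0 and 402, and Schwann cell markers, led by Mbp and with 0 of 5 passing, to between 30.5 and 71.6 and between 53.7 and 298. In 0 genes of these 3 lists was the P30 order 2, 3, 1.

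Melanocyte markers had the P5 order of the mural genes in 5 of 5, beside 23.6% of all genes, led by Dct, and 0 of 5 passed the test. Their sum was 457, 118 and 97.0 for replicates 1, 2 and 3 of P5 and 1251, 1118 and 120 for those of P30. Among the P5 isolations, replicate 1 had the highest sum of the melanocyte markers as well as of the mural genes. It also had the highest RPE sum of P5, 144 against 65.5 and 72.0. The melanocyte and RPE sums shared the order 1, 2, 3 at P30. The tissue was RPE/choroid, and which cells carried the melanocyte markers was not tested. At P30 the melanocyte and pericyte sums peaked in different isolations. Erythroid markers, of which 0 of 4 passed, had sums of 151 to 484 at P5 and 433 to 1394 at P30, led by Hba-a1. Macrophage markers, led at P30 by Cd68, ran the other way, with 3 of 5 lower at P30, beside 5.82% of all genes. Their sums were 418 to 560.2 at P5 and 141 to 304 at P30, with the lowest in P30 replicate 2, where the mural genes were highest.

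**Figure D4:**
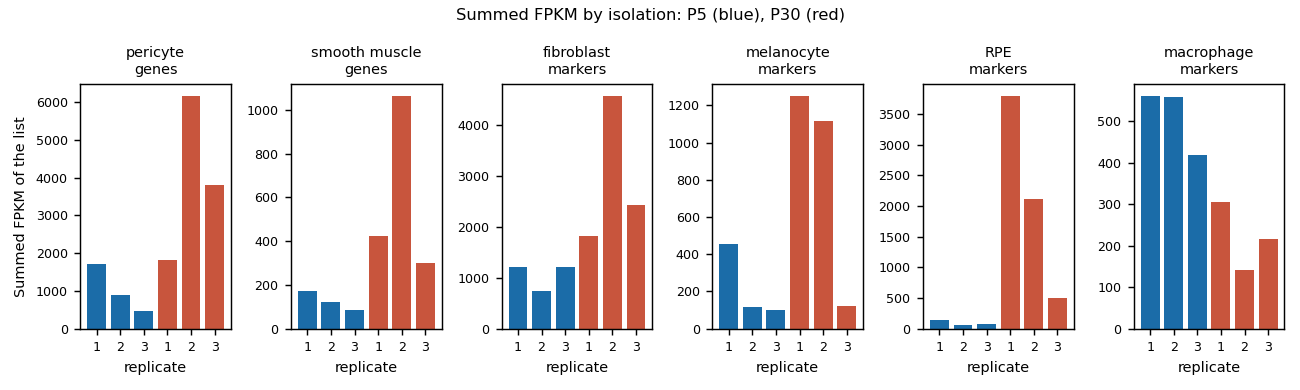
Summed FPKM of the 6 pericyte genes, the 4 smooth muscle genes and 4 lists of markers of other cells in P5 (blue) and P30 (red) replicates 1 to 3, each panel on its own axis from 0. Pericyte and fibroblast sums are ordered 2, 3, 1 at P30, the smooth muscle sum 2, 1, 3, the melanocyte and RPE sums 1, 2, 3, and the macrophage sum is lowest in P30 replicate 2.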

How the data were processed

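Choroid ECs were sorted from P5 and P30 mice, 3 isolations per age, and samples were grouped by their titles. Per the labels and methods, the authors processed reads with CASAVA 1.8.2 and FastQC, aligned them to mm9 with TopHat and deposited FPKM per gene symbol and isolation, calculated by CuffLinks with GC and upper quartile normalization. Versions of TopHat and CuffLinks and the annotation are not given in the sources used here, and read counts were not used here. Upper quartile scaling ties each value to the other genes of its library.

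For the test, limma 3.58.1 in R 4.3.3 was fitted without a block and with a variance trend (eBayes) to log2(FPKM + 1) of the 12481 genes whose mean FPKM reached 5 at either age. The fit was tested on simulated data, where 191 of 200 genes given a log2 change of 3 in either direction and 1 other gene of 12481 were called. Python 3.11.15, pandas 2.3.3 and biopython 1.88 were used elsewhere. No pair of isolations held identical values. Members and lists were chosen with earlier results of these data known. Beside the 10 genes, the text names the genes called and the most abundant (the top 3 of a mural list by P30 mean, 2 of the regulator, signal and paralogue lists by overall mean, 1 of a marker list) in each list, and the 5 nearest profiles per group. Genes singled out for another reason (Smtn, Cnn1, Ednra, Gucy1a3, Gucy1b3, Tbx18, Srf, Myocd, Pdgfb, Tgfb1, the Notch ligands, the other Notch receptors, actins, Myh9, Kcnj11, Abcc8, Pdgfra, Dpt, Rpe65, Tnnc2, Myh4 and Cdh5) were chosen after their values were seen. Some genes that the rule names are not reported here. P-values measure the spread between isolations, which are pools of animals. Alternatives were other pseudocounts and minimum levels, quantile normalization, scaling to the endothelial markers, no variance trend, the replicate number as a block and leaving out each isolation.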

Additional observations from a re-analysis of the deposited data

How the results depend on the processing

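Over the pericyte genes, the median log2 difference between ages was 1.90 to 2.04 with other pseudocounts or quantile normalization and 1.40 to 2.51 as single isolations were left out. Over the smooth muscle genes it was 1.98 to 2.16 and 1.63 to 2.45. Relative to Pdgfrb, chosen after seeing the data, these medians reversed to -0.21 and -0.041, and 0 pericyte and 0 smooth muscle genes had all P30 values above all P5 values. The ratio takes out the shared difference by construction, and Cspg4 and Abcc9 lay lower at P30 without overlap. Relative to the endothelial markers, 0 pericyte genes had all P30 values above all P5 values. Without 1 isolation, between 3 and 4 pericyte and always 4 smooth muscle genes did.

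The numbers of genes over the whole list moved most without 1 isolation, to between 396 and 849 higher and between 291 and 754 lower at P30, with 404 and 291 without P5 replicate 2, 396 and 297 without P5 replicate 3, and 427 lower without P5 replicate 1. Without P5 replicate 2 or 3, the counts were 2 other pericyte and 2 other smooth muscle genes higher at P30, ranging over all isolations from 2 to 4 and from 2 to 6. Without P5 replicate 1 or P30 replicate 2, 3 other smooth muscle genes were higher. Without P30 replicate 2, 1 other smooth muscle gene was lower at P30 (range 0 to 1), and 5 signals to mural cells were higher (range 3 to 5). Without P30 replicate 1, 2 SRF regulators (range 1 to 2) and 1 paralogue (range 0 to 1) were higher. With a pseudocount of 0.1, 3 other smooth muscle genes were higher, and with quantile normalization 1 other pericyte gene was lower and 1 paralogue was higher and 2 lower. Of the named calls, Vtn, Art3, Sncg, Hspb1, Klf4, Hbegf, Edn1, S1pr1 and Myh10 held in all 13 alternatives each, while Lmod1 was lost in 8, Pln in 7, Higd1b in 2 and Myl9 in 2. Lmod1 and Pln were lost also with every isolation in the fit, at a pseudocount of 0.1 and with the replicate block, and Lmod1 at a pseudocount of 5. The cause of these losses was not tested.

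With the replicate block, 585 genes were higher and 524 lower at P30, and 3 other smooth muscle genes were higher. It changed no other list count. The pairing is from the labels' numbers alone: same-numbered isolations had correlations of -0.06, -0.09 and -0.03 in their deviations from the age means. Depth is unknown, so values near 0 FPKM limit what can be said of Myocd, Cnn1 and Kcnj11.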
